A study of Mus musculus with 6 samples.

Results

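The genes described here carry out glycolysis, the handling of its end products pyruvate and lactate, and the pentose phosphate pathway. They were chosen by name, as 36 genes, and each was read from its brightest probe set on Affymetrix arrays. Of the 36, 31 had a probe set named for that gene alone, and all 31 passed the filter on dim probe sets, so 31 of the 11625 genes tested were members. Gapdh was named only by array control probe sets and is given separately. Gpi1, Eno1, Pfkfb1 and G6pdx were not analysed here.

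The series compared megakaryocyte progenitors (MkP), the sorted blood precursors of platelet-producing megakaryocytes, from adult bone marrow and from fetal liver. All mice were wild type C57BL/6. The 3 marrow samples came from adults aged 12 to 18 weeks and the 3 fetal liver samples from embryos at E13.5. In both tissues the cells were sorted as lineage-, Sca-1-, c-kit+, CD150+ and CD41+, with 1 array per sample. The labels call the samples biological replicates without saying how many animals or embryos each one pooled, so p-values measure the spread between these samples.

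Glycolysis splits glucose into pyruvate, which lactate dehydrogenase turns into lactate for export or pyruvate dehydrogenase passes to the mitochondria. Most steps have several isozymes with different tissue patterns, and the transporters, the hexokinases, phosphofructokinase and the pyruvate dehydrogenase kinases are the points where flux is set. The pentose phosphate pathway branches off after the hexokinase step and supplies NADPH and ribose for nucleotides. Many genes of glycolysis and lactate export are known targets of the hypoxia-inducible factors (HIF), and blood progenitors are known for their use of glycolysis.

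The transcripts of 1 lactate carrier (Slc16a3), 1 glucose transporter (Slc2a1) and triose phosphate isomerase (Tpi1) were higher in the fetal liver arrays, and that of the myeloid hexokinase (Hk3) in the marrow arrays. Of the 31 genes, these 3 rose in fetal liver and 1 fell past an adjusted p of 0.05 in limma, where the calls among all genes tested came to 3.01% with more signal in fetal liver, 4.76% with more in marrow and 7.77% together. All 3 fetal liver signals lay above all 3 marrow signals for 10 of the 31, which is 32.3% of them against 13.8% of all genes. The reverse order held for 3 of the 31, or 9.68%, against 14.2% of all genes, and either order for 28.0% of all genes. The log2 change, always fetal liver minus marrow, was positive for 22 of the 31 genes and for 50.5% of all genes. Its median was 0.23 for the 31 genes and 0.0065 for all genes. Among the 2906 genes with the highest mean signals, 14 were members. Of these 14, 13 had a positive change, with a median of 0.47, against 59.3% positive and a median of 0.10 over the 2906, and 2 were called higher in fetal liver, against 4.47%. In 8 of the 14 every fetal liver array lay above every marrow array, against 20.9% of the 2906. Scaling each array to its median moved the median of all genes to 0.26 and that of the 31 genes to 0.48.

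The arrays of the tissues also differed in ways that are not about single genes. The median signal was 74.1 to 80.2 on the marrow arrays and 62.8 to 65.5 on the fetal liver arrays, and the 5' to 3' ratio of the Actb control probe sets, a measure of RNA length after labelling, was 1.06 to 1.13 in marrow and 0.892 to 1.02 in fetal liver. Without that ratio in the fit, 3 of the 31 genes were past the threshold with more signal in fetal liver and 1 with more in marrow. An unadjusted limma p under 0.05 was found for 14 of the 31 and for 2643 of all 11625 genes. With the ratio as a covariate 0 of the 31 genes were past the threshold in limma, and 0.447% of all genes were, against 7.77% without it. The changes of Slc16a3, Slc2a1, Hk3 and Tpi1 were then 3.83, 1.32, -5.57 and 0.53 (adjusted p = 0.139, 0.285, 0.118 and 0.494). The Actb ratio did not overlap between the tissues, so this fit cannot fully separate it from tissue. The same ratio for Gapdh overlapped, at 0.0991 to 0.303 in marrow and 0.109 to 0.449 in fetal liver (two-sided exact permutation p = 0.3). The part of RNA length in these differences was not tested. Of 14 measured megakaryocyte markers 13 were above the bacterial controls on all 6 arrays, Gp6 was on no marrow array, and 0 of 13 tested in limma were called, among them Pf4 (-0.32), Itgb3 (0.34) and Itga2b (-0.64, adjusted p = 0.109).

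**Figure D1:**
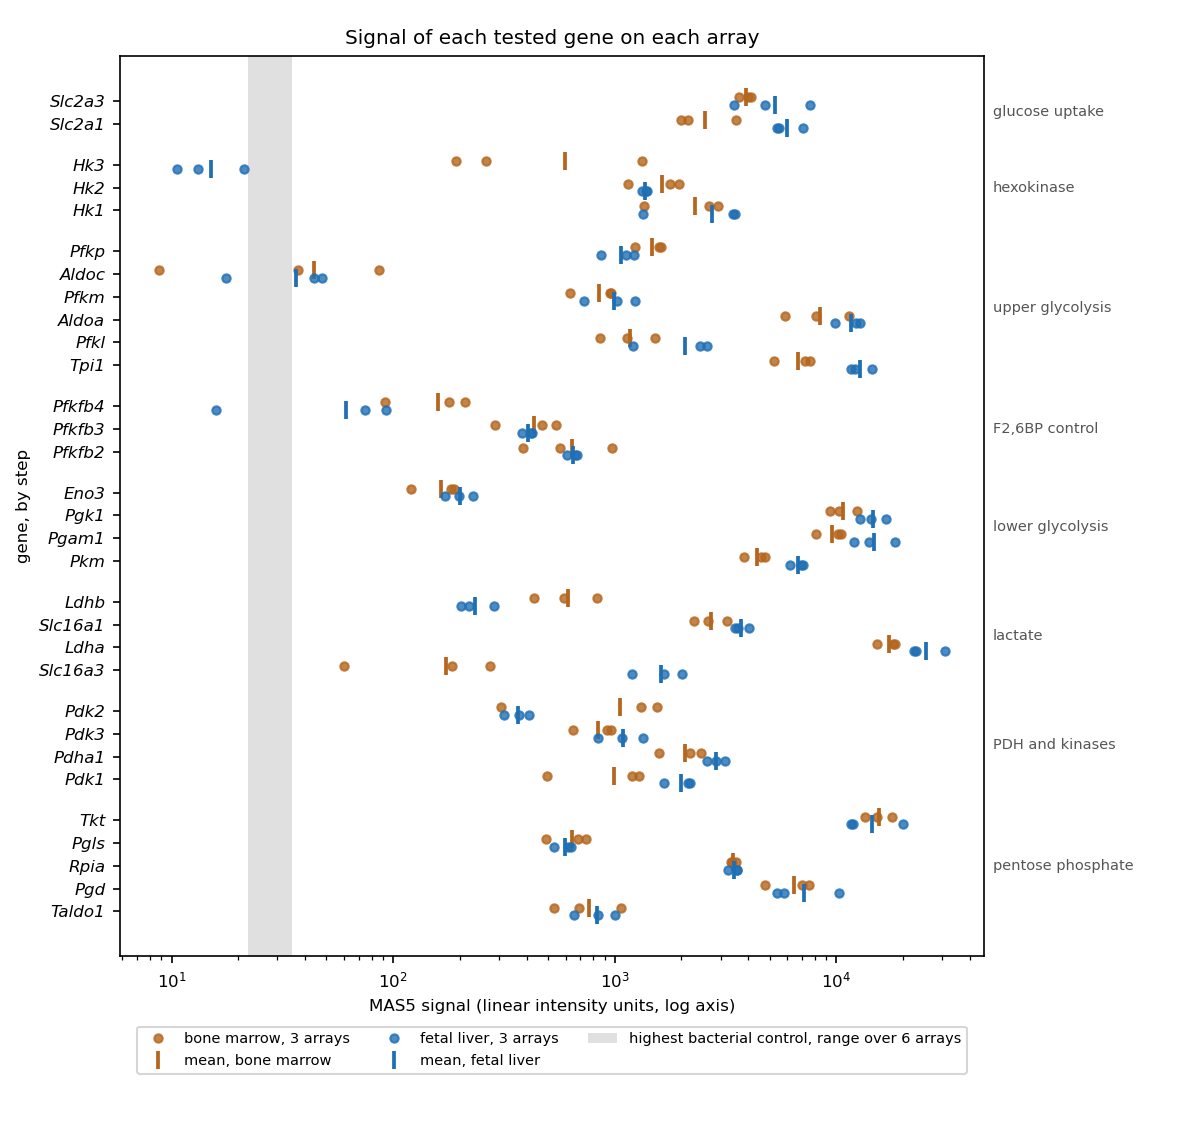
MAS5 signal (log axis, linear intensity units) of the 31 tested genes on each of the 3 marrow and 3 fetal liver arrays, ordered by step, with vertical bars at the group means and a grey band over the range of the highest bacterial control signals (22.2 to 35.1). The fetal liver points of Slc16a3 lie at 1193 to 2002 against 60.04 to 274.2 in marrow, and those of Hk3 lie below the grey band.

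**Figure D2:**
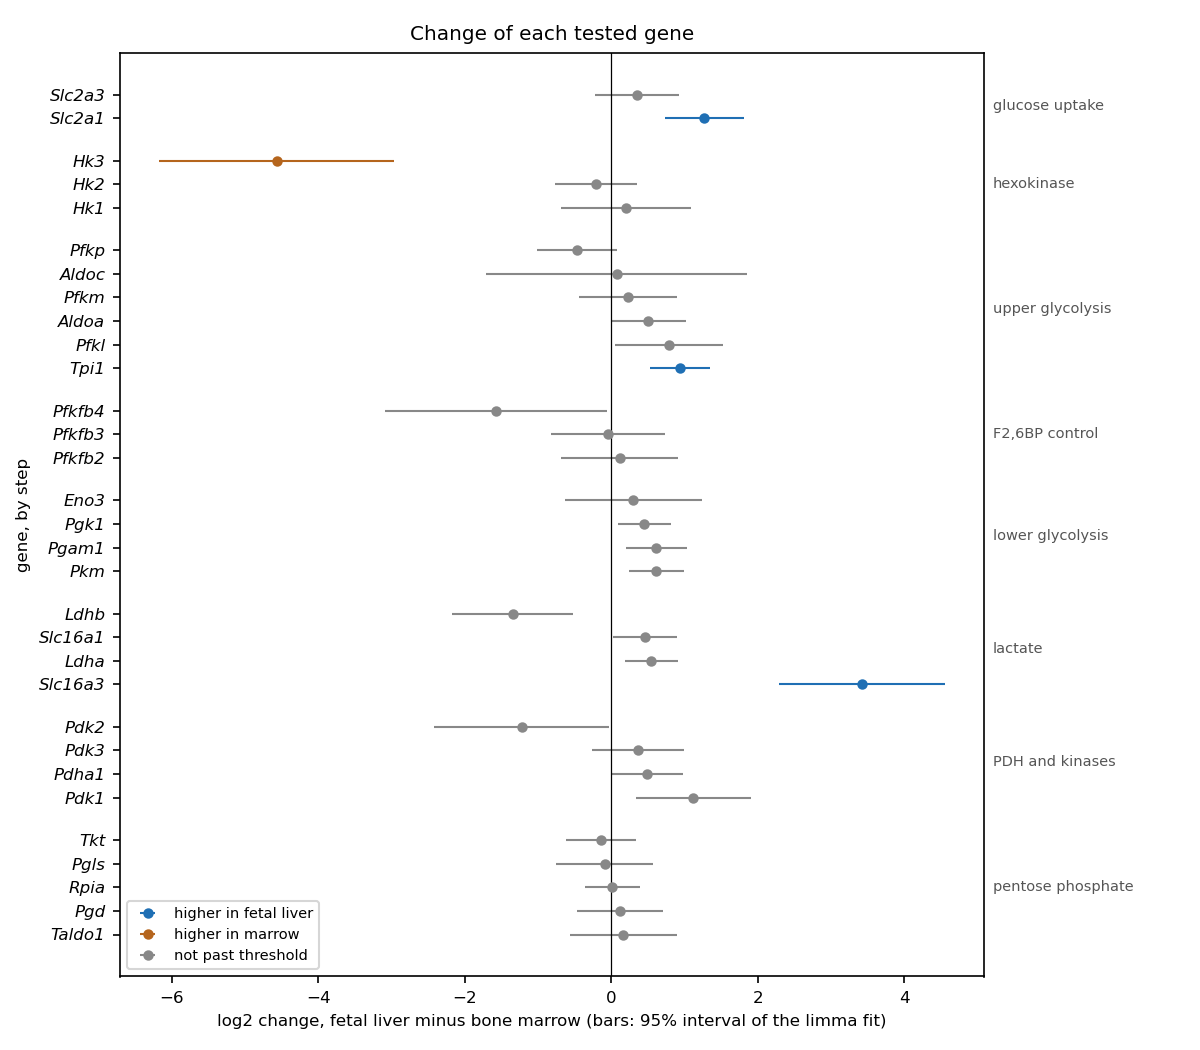
Log2 change (fetal liver minus marrow) of the 31 tested genes with the 95% interval of the limma fit, blue and brown for genes past the threshold and grey for the others. Slc16a3, Slc2a1 and Tpi1 lie to the right and Hk3 to the left, and the 5 pentose phosphate genes lie within 0.17 of 0.

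The promoters of the 4 genes past the threshold are shown. Each line gives the 250 bases before the annotated start from RefSeq (GRCm38.p6), read on the gene's own strand. Capitals mark the letters ACGTG or GCGTG on either strand, the core of the HIF response element, whose ACGTG form is also contained in the MYC site CACGTG. Slc16a3 is at chr11:120948817-120949066 on the plus strand, Slc2a1 at chr4:119108495-119108744 on the plus strand, Tpi1 at chr6:124814159-124814408 on the minus strand and Hk3 at chr13:55021386-55021635 on the minus strand.
Slc16a3: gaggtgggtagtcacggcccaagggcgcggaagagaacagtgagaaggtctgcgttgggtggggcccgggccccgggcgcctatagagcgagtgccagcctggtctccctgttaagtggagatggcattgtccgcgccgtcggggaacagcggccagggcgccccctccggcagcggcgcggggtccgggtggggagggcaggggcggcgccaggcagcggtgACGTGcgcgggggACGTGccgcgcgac
Slc2a1: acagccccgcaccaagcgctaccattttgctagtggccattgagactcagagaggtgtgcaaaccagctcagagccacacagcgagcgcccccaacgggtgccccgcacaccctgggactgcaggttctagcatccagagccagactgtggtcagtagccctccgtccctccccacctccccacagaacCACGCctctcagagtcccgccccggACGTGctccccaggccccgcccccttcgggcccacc
Tpi1: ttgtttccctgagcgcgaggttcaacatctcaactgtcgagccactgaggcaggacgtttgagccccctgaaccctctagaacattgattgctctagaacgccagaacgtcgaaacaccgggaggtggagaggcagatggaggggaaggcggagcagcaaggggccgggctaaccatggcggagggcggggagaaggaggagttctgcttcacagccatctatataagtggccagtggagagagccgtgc
Hk3: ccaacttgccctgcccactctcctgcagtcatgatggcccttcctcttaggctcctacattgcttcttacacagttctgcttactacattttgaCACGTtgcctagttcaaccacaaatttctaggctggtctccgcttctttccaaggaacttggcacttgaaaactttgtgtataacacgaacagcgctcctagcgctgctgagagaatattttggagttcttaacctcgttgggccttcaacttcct

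Slc16a3 had 2 such cores close to the start, at -27 and -14, Slc2a1 had 2, at -61 and -36, Hk3 had 1, at -156, and the Tpi1 window had none. RefSeq windows were at hand for 35 of the 36 genes (55 windows, several genes having more than 1 start), of which 43, or 78.2%, held a core, against 38.6% of all 32851 windows. The windows of these genes were richer in G and C (median 59.6%) than all windows (52.4%). Some windows of the same gene overlap and hold the same core, as for Aldoa and Eno1, so the 43 are not separate observations. Windows of genes that did not pass also held cores, among them Tkt (at -68), Rpia (-74), Taldo1 (-80), Pgls (-205) and Ldhb (-126). A match describes letters and shows no binding, and its relation to the changes was not tested.

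Glucose enters these cells through facilitative transporters. Slc2a1, which encodes the widely expressed transporter GLUT1, had signals of 1989, 2148 and 3534 on the marrow arrays and 5402, 7101 and 5491 on the fetal liver arrays. The groups did not overlap, and the change was 1.27 ± 0.24 on the log2 scale (SE, limma adjusted p = 0.0109). The call was lost without fetal liver replicate 2, the highest array (1.14, adjusted p = 0.0611), and without the intensity trend of the variance model (adjusted p = 0.0699), within 5.98e-04 to 0.285 over all alternatives. Both further probe sets of Slc2a1 rose as well, by 1.91 and 1.92 in the fit of all probe sets (adjusted p = 0.00186 and 0.00135). Slc2a3, which encodes the high-affinity transporter GLUT3, had marrow signals of 4007, 3641 and 4118 and fetal liver signals of 3463, 4761 and 7574, with fetal liver replicate 3 well above the rest. Its change of 0.35 was not past the threshold (95% interval -0.23 to 0.93, adjusted p = 0.474). Its 3 further probe sets lay at 0.74, 1.18 and 0.21 (adjusted p = 0.0987, 0.16 and 0.866 in the fit of all probe sets), the first without overlap. With _x_at and _s_at probe sets left out Slc2a3 was at 1.18 (adjusted p = 0.14), and without fetal liver replicate 3 at 0.05 (adjusted p = 0.951).

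Slc2a1 is also abundant in red cell precursors, and some erythroid markers moved the same way. Of 13 erythroid markers past the filter, 5 rose past the threshold and 0 fell, against 3.01% and 4.76% of all genes. Those that rose were the globin genes Hbb-y and Hbb-bh1, and Rhag, Klf1 and Tfrc. The change was positive for 10 of the 13 and negative for 3, and 8 overlapped between the tissues. The summed signal of the 13 ran from 21108 to 26650 in marrow and from 29077 to 44708 in fetal liver, highest in fetal liver replicate 2. The carbonic anhydrase Car2 (-0.12, adjusted p = 0.671) and Ermap (1.92, adjusted p = 0.108) were not past the threshold in limma, and Tfrc, the transferrin receptor, rose by 1.01 (adjusted p = 0.0165). The globin gene Hba-a1 was not above the bacterial controls on any array, and Hba-x, Hbb-y and Hbb-bh1 were not on any marrow array. The part of erythroid cells in the Slc2a1 difference was not tested. In sorted bulk samples, fewer cells of a type and less RNA per cell cannot be told apart.

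Hexokinase traps glucose in the cell by phosphorylation. Hk1, the general form, and Hk2, the inducible form, were above the bacterial controls on all 6 arrays and showed no difference past the threshold. Hk1 signals were 2650.2, 1355 and 2923 in marrow and 1343, 3498 and 3403 in fetal liver, so that 1 array of each tissue lay low (change 0.20, 95% interval -0.68 to 1.09, adjusted p = 0.819). Hk2 signals were 1149.8, 1773 and 1955 in marrow and 1329, 1386 and 1399.8 in fetal liver (change -0.21, interval -0.77 to 0.35, adjusted p = 0.691).

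Hk3, the isozyme of granulocytes and monocytes, had the largest log2 change of the 31 genes in either direction. Its signals were 263.4, 193.1 and 1331 in marrow and 13.2, 10.6 and 21.2 in fetal liver. It was above the highest bacterial control on all 3 marrow arrays and on none of the fetal liver arrays, which makes it at least 12.5-fold lower in fetal liver (limma adjusted p = 0.00419). For that bound each fetal liver array counted with the highest bacterial control or the Hk3 signal, whichever was higher. Without marrow replicate 3, the highest array, it was 6.97-fold, and 11.9-fold to 18.2-fold when any other single array was left out. The other Hk3 probe set changed by -4.54 in the fit of all probe sets (adjusted p = 0.00699), with 1 fetal liver array above the controls. Under the filter at the 60th percentile Hk3 was too dim to be tested.

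Granulocyte and monocyte markers were lower in the same fetal liver arrays. Of 14 such markers past the filter 13 fell and 0 rose. Their summed signal ran from 47134 to 75339 in marrow, highest in replicate 3, the array with the highest Hk3, and from 4930 to 7031 in fetal liver. Mpo, S100a9 and Lyz2 fell, with log2 changes of -2.23, -7.23 and -2.42 (adjusted p = 0.00463, 0.00545 and 1.89e-04). Of 18 measured without the filter, 7 were not above the bacterial controls on any fetal liver array (Ltf, Lcn2, Mmp8, Csf3r, Chil3, Fcnb and Itgam). Macrophage markers fell in 3 of 6 cases (summed 1834 to 3485 against 285.3 to 587.6), with Csf1r at -3.08, Vcam1 at -3.31 and C1qb at -1.63, the last not past the threshold. Of 5 lymphoid markers 1 fell (summed 1826 to 2294 against 485.9 to 661.1), which was Nkg7 (-3.28), while Vpreb1 (-2.03) and Cd79b (0.42) did not pass. Of 6 hepatocyte markers 1 rose, Apoa1 (2.51, adjusted p = 0.0481), and Afp and Apoa2 did not pass. The hepatocyte sum was 234.3 to 698.8 in marrow and 861.4, 3678 and 641.2 in fetal liver, with Afp at 2793 in fetal liver replicate 2, and Fgb, Fga, Fgg and Rbp4 were not above the controls on any array. The part of these cells in the Hk3 difference was not tested.

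In upper glycolysis, triose phosphate isomerase was higher in fetal liver. Tpi1, which interconverts the triose phosphates made by aldolase, had signals of 7617, 5203 and 7214 in marrow and 14406, 12133 and 11606 in fetal liver. Every fetal liver array lay above every marrow array, and the change was 0.94 ± 0.19 (SE, limma adjusted p = 0.0125). Its 2 further probe sets rose by 0.95 and 1.45 (adjusted p = 0.0154 and 0.00814 in the fit of all probe sets). The call was lost without the intensity trend (adjusted p = 0.1), within 0.00319 to 0.494 over all alternatives. Tpi1, Pgk1, Pgam1, Ldha and Aldoa belong to gene families with near-identical processed pseudogenes, so the share of a signal that comes from copies is uncertain.

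Phosphofructokinase, the committed step, is built from 3 subunits, and none passed the threshold. The liver-type subunit Pfkl had signals of 854.5, 1132 and 1516 in marrow and 1204, 2414 and 2604 in fetal liver (change 0.79, 95% interval 0.05 to 1.53, adjusted p = 0.192). Its further probe sets disagreed in sign, at 1.21 and -1.20 (adjusted p = 0.0762 and 0.34), the latter from a dim probe set. The platelet-type subunit Pfkp lay the other way without overlap, at 1231, 1616 and 1582 in marrow and 1222, 863.6 and 1122 in fetal liver (change -0.47, interval -1.02 to 0.08, adjusted p = 0.3). Both further probe sets of Pfkp overlapped, at -0.23 and -0.94 (adjusted p = 0.82 and 0.23 in the limma fit of all probe sets). The muscle-type subunit Pfkm overlapped, at 626.1, 951.6 and 957.4 against 725.6, 1029 and 1228 (change 0.23, adjusted p = 0.72).

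Aldoa, the main aldolase, had signals of 5892, 8054 and 11406 in marrow and 9902, 12244 and 12755 in fetal liver, which overlapped at marrow replicate 3 (change 0.50, adjusted p = 0.227). Aldoc, the brain-type aldolase, was near background, at 8.80, 37.3 and 85.9 in marrow and 43.9, 17.5 and 47.8 in fetal liver, with 2 of 3 arrays above the controls in each tissue (change 0.07, adjusted p = 0.973). The PFKFB enzymes make and remove the sugar phosphate that activates phosphofructokinase. Pfkfb4 had signals of 178.2, 210.4 and 91.8 in marrow and 15.9, 92.6 and 74.5 in fetal liver, with 1 fetal liver array not above the controls (change -1.57, 95% interval -3.09 to -0.05, adjusted p = 0.202). Pfkfb2 overlapped, at 383.6, 976.6 and 568.2 against 660.5, 607.6 and 675.6 (change 0.12, adjusted p = 0.898). Pfkfb3 overlapped too, at 468.6, 288.3 and 542.9 against 379.6, 421.6 and 416.9 (change -0.05, adjusted p = 0.963), but its second probe set differed by -1.44 without overlap, not past the threshold (741.7, 712.4 and 372.5 against 230.1, 217.1 and 194.0, adjusted p = 0.0548 in the fit of all probe sets).

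Of the 4 enzymes of lower glycolysis 0 passed the threshold in limma, and their median change was 0.53. An unadjusted p under 0.05 was found for 3 of the 4, for 2643 of all 11625 genes and for 752 of the 2906 brightest. Pkm, pyruvate kinase of most tissues outside liver and red cells, had signals of 4575, 3848 and 4765 in marrow and 6149.7, 7062 and 6952 in fetal liver (change 0.62, 95% interval 0.24 to 0.99, adjusted p = 0.0523). Pgam1, phosphoglycerate mutase, had signals of 10143, 8124 and 10498 against 18436, 14059 and 12007 (change 0.62, interval 0.20 to 1.03, adjusted p = 0.0777). Pgk1, phosphoglycerate kinase, had signals of 10298, 9397 and 12330.1 against 16687, 12819 and 14321 (change 0.45, interval 0.09 to 0.82, adjusted p = 0.132). The further probe sets of Pgk1 overlapped, at 0.60 and 0.49 (adjusted p = 0.368 and 0.406 in the fit of all probe sets). In the probe sets used, all 3 genes were without overlap. Under median centring, which moves the median of all genes to 0.26, all 3 were past the threshold (adjusted p = 0.00985, 0.0142 and 0.0204), and Pgam1 and Pgk1 were also past it under quantile normalization (adjusted p = 0.0191 and 0.0386). Pkm was past it in 7 of 20 alternatives in all (adjusted p = 0.00985 to 0.42). Eno3, the muscle enolase, overlapped at 181.6, 189.0 and 120.3 against 172.1, 197.4 and 229.8 (change 0.30, adjusted p = 0.734).

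Gapdh could be read only from the array maker's control probe sets, which tile its transcript from the 5' to the 3' end. The 3' probe set had signals of 16601, 14234 and 17824 in marrow and 21241, 15815 and 16664 in fetal liver, a change of 0.14 ± 0.16 (SE, adjusted p = 0.683) when it was added to the fit, a choice made after seeing the data. The 5' probe set ran from 1644 to 5405 in marrow and from 2308 to 7203 in fetal liver (change 0.80, adjusted p = 0.374). Its ratio of 5' to 3' signal was 0.0991, 0.177 and 0.303 in marrow and 0.109, 0.449 and 0.432 in fetal liver, so that both tissues held arrays with a low ratio.

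The largest rise among the 31 genes lay in lactate handling. Slc16a3 encodes MCT4, a monocarboxylate transporter known for exporting lactate from highly glycolytic cells. Its signals were 60.04, 184.8 and 274.2 in marrow and 1193, 1675 and 2002 in fetal liver, all above the bacterial controls. The lowest fetal liver array was above the highest marrow array, and the change was 3.42 ± 0.51 (SE, limma adjusted p = 0.00297), or 10.7-fold, with a 95% interval of 4.89-fold to 23.5-fold. It stayed past the threshold with any of the 6 arrays left out (adjusted p = 0.00251 to 0.0205). Slc16a3 was read from 1 probe set only, so no further probe set could be compared. Slc16a1, which encodes the more general carrier MCT1, had signals of 2625, 3219 and 2281 against 3490.4, 4033 and 3586, without overlap but with a change of 0.46 that was not past the threshold (interval 0.02 to 0.90, adjusted p = 0.194).

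The lactate dehydrogenase subunits lay in opposite directions. Ldha, the muscle-type subunit that favours lactate formation, had signals of 18077, 18321 and 15257 in marrow and 30820.2, 22875 and 22418 in fetal liver (change 0.55, 95% interval 0.19 to 0.91, adjusted p = 0.0688). Ldhb, the heart-type subunit, had signals of 590.1, 433.3 and 830.0 against 284.7, 201.7 and 219.2 (change -1.35, interval -2.17 to -0.53, adjusted p = 0.0523). Both pairs of groups were without overlap, and neither gene was past the threshold. Ldhb rested on which of 4 probe sets stood for it. In the fit of all probe sets these lay at -2.37, -1.35, -1.64 and -0.84 (adjusted p = 0.00885, 0.0618, 0.0264 and 0.36). The last of them overlapped, at 302.7, 343.6 and 963.0 in marrow against 330.8, 249.2 and 208.9 in fetal liver. The probe set that is brightest on the linear scale read 872.0, 480.0 and 1050.0 against 199.0, 114.1 and 133.0, and with it Ldhb fell past the threshold (-2.37, adjusted p = 0.00785), an alternative added after seeing the data. Ldhb was past it in 6 of 20 alternatives, among them the one without marrow replicate 2 (adjusted p = 0.0392; 0.00785 to 0.332 over all alternatives). Ldha was past it under quantile normalization and median centring (adjusted p = 0.00466 and 0.0147).

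Pyruvate dehydrogenase links glycolysis to the mitochondria and is switched off by its kinases. Pdk1, the kinase known as a HIF target, had signals of 492.3, 1285 and 1193 in marrow and 1675, 2129 and 2190.3 in fetal liver (change 1.12, 95% interval 0.34 to 1.91, adjusted p = 0.0856). The groups did not overlap, and 2 of its 3 further probe sets were past the threshold in the fit of all probe sets, at 1.47 and 1.27 (adjusted p = 0.0138 and 0.0474). Pdk2 lay lower in fetal liver, at 371.5, 412.3 and 317.5, than on 2 marrow arrays at 1548 and 1311, but marrow replicate 3 read 307.1 (change -1.22, adjusted p = 0.209). Without that array Pdk2 was past the threshold, at -1.96 (adjusted p = 0.00973). Pdk3 overlapped, at 959.2, 648.4 and 920.3 against 843.8, 1079 and 1344 (change 0.36, adjusted p = 0.504). Pdha1, a catalytic subunit of the complex, differed by 0.49 without overlap (2438, 2189 and 1584 against 3140.3, 2598 and 2855, adjusted p = 0.224). Its further probe set overlapped (0.70, adjusted p = 0.187 in the fit of all probe sets).

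**Figure D3:**
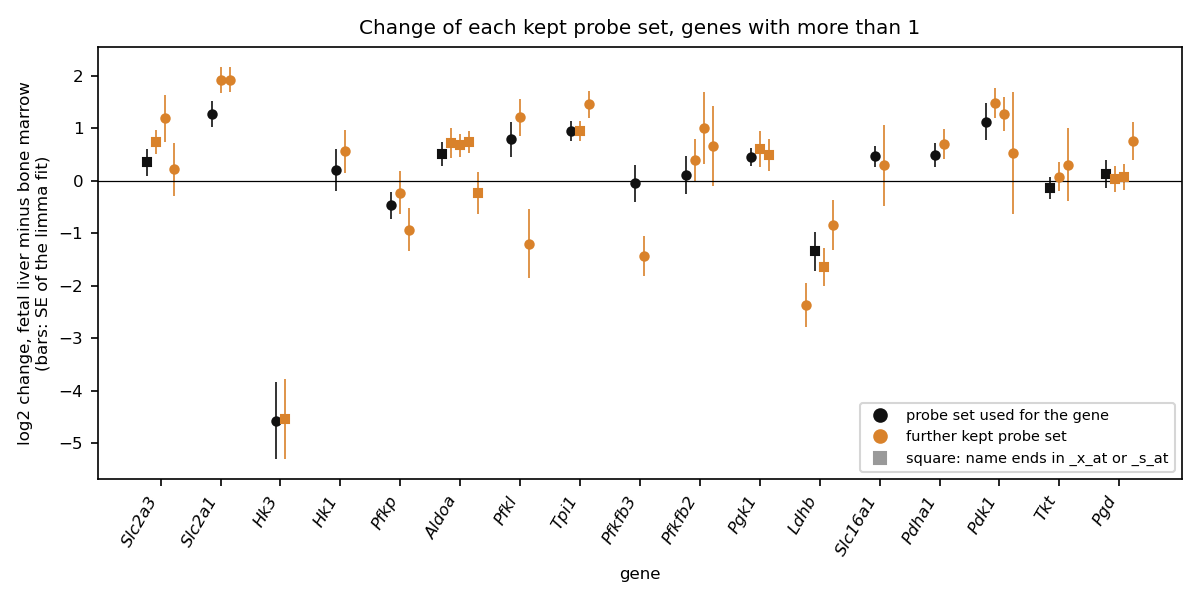
Log2 change (fetal liver minus marrow, bars SE of the limma fit of all probe sets) of every kept probe set of the 17 genes with more than 1, black for the one that stands for the gene and orange for the others, squares where the name ends in _x_at or _s_at. The 3 probe sets each of Slc2a1 and Tpi1 lie above 0 and the 4 of Ldhb below it, while those of Pfkl, Aldoa and Tkt lie on both sides.

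Across these genes, 32 of the 36 further kept probe sets had the sign of the one that stood for the gene. Of the 36, 9 were past the threshold in the fit of all probe sets, and 0 of these had the other sign. The 9 are repeat readings of Slc2a1, Hk3, Tpi1, Ldhb and Pdk1. The share past the threshold over all kept probe sets is not given here. The plot of changes by probe set shows where they spread.

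Of the 5 pentose phosphate genes tested in limma, 0 were past the threshold, 0 had an unadjusted p under 0.05 and 0 were without overlap, with changes from -0.13 to 0.16. Tkt, transketolase, had signals of 17782, 15317 and 13395 in marrow and 19877, 11922 and 11637 in fetal liver (95% interval -0.61 to 0.34, adjusted p = 0.774). Pgd, which makes NADPH by oxidising phosphogluconate, had signals of 6964, 7524 and 4757 against 10243, 5780.2 and 5423 (interval -0.47 to 0.71, adjusted p = 0.84). For both, fetal liver replicate 1 was the highest of the 6 arrays. Rpia, ribose phosphate isomerase, had the smallest change of the 31 genes, at 3379, 3530 and 3340.4 in marrow and 3555, 3556 and 3254 in fetal liver (change 0.02, interval -0.36 to 0.39, adjusted p = 0.973). Pgls and Taldo1 overlapped, with differences of -0.09 and 0.16 (adjusted p = 0.901 and 0.823). The intervals do not exclude changes of up to 0.39 for Rpia and 0.89 for Taldo1.

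The balance between isozymes was compared on each array as the log2 ratio of their signals, which shows unequal change and gives no order of levels. Of 16 pairs, 8 did not overlap between the tissues. Some of the 8 share a gene, Hk3 or Pfkl, so they are not separate results. The share without overlap among other pairs of genes is not given here. The ratio of Ldha to Ldhb was 4.93, 5.39 and 4.20 in marrow and 6.74, 6.80 and 6.66 in fetal liver, a difference of 1.90 (two-sided exact permutation p = 0.1, the smallest that 3 against 3 arrays allow; 0.2 adjusted over the 16 pairs). The fetal liver arrays lay close together and the marrow arrays further apart. The ratio of Slc16a1 to Slc16a3 was 5.38, 4.10 and 3.04 in marrow and 1.55, 1.27 and 0.84 in fetal liver, a difference of -2.96 (exact permutation p = 0.1). The ratio of Pdk1 to Pdk2 differed by 2.34 (exact permutation p = 0.1), but marrow replicate 3, at 1.95, lay near the fetal liver arrays at 2.16, 2.36 and 2.78. That of Pfkl to Pfkp differed by 1.26 (exact permutation p = 0.1), with fetal liver replicate 1 at -0.02 close to marrow replicate 3 at -0.06. For the ratios of Hk1 and Hk2 to Hk3, Hk3 was not above the controls in fetal liver, and with Hk3 set there to the highest control the differences were at least 3.85 and 3.44, still without overlap. The ratio of Hk1 to Hk2 overlapped (0.41, exact permutation p = 0.5). The ratio of Slc2a1 to Slc2a3 overlapped as well, at -1.01, -0.76 and -0.22 in marrow and 0.64, 0.58 and -0.46 in fetal liver (0.91, exact permutation p = 0.2).

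**Figure D4:**
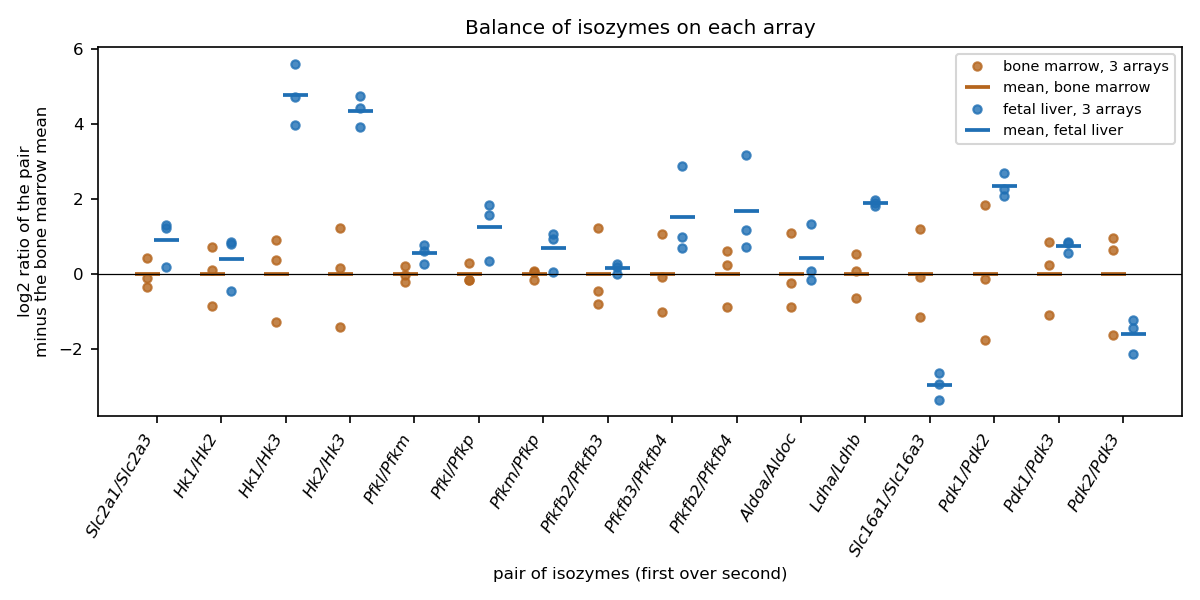
Log2 ratio of the signals of 16 isozyme pairs (first over second) on each of the 3 marrow and 3 fetal liver arrays, shown minus the marrow mean of the pair, with horizontal bars at the group means. The fetal liver points of Ldha/Ldhb lie together near 1.90, those of Slc16a1/Slc16a3 near -2.96, and those of Hk1/Hk2 overlap the marrow points. Points over Hk3 use its measured signals, which are below the controls in fetal liver.

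Neighbouring steps of sugar metabolism and regulators of glycolytic genes were read from 9 other lists. Of their 98 tested genes, 5 rose and 2 fell past the threshold (7.14%, against 7.77% of all genes), with a median change of 0.19. The 98 include 21 regulators, of which 2 rose and 1 fell. Among other glycolytic isozymes 0 of 9 passed. Pklr, the pyruvate kinase of liver and red cells, had signals of 197.4, 17.01 and 832.7 in marrow and 1616, 3043 and 1600.1 in fetal liver (change 3.74, adjusted p = 0.0526), a value that passed when marrow replicate 2 or 3 was left out (adjusted p = 0.0433 and 0.0388) and in 10 of 20 alternatives (0.0253 to 0.684). Adpgk, a glucokinase that uses ADP, did not pass (0.99, adjusted p = 0.194).

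Regulators moved in part. Hif3a, a HIF family member, rose by 6.46 ± 0.61 (SE, limma adjusted p = 2.06e-04), from signals of 12.4, 4.98 and 35.4 to 1119, 2218 and 1259.6, with 1 marrow array above the bacterial controls. The size of that rise is uncertain: it was 5.40 with signals floored at the controls (adjusted p = 2.99e-05) and 4.21 when its probe sets were averaged (adjusted p = 0.00199). Egln3, an oxygen-sensing prolyl hydroxylase that is itself a known HIF target, rose from 233.0, 156.2 and 240.6 to 728.4, 500.2 and 834.2 (1.69, adjusted p = 0.0199), a call lost without fetal liver replicate 1 or 3 (adjusted p = 0.0692 and 0.119). Txnip, which restrains glucose uptake, fell from 2337, 4874 and 2179 to 628.9, 1159 and 1336 (-1.55, adjusted p = 0.0293), a call lost without marrow replicate 2 or fetal liver replicates 1 or 2 (adjusted p = 0.0733, 0.0851 and 0.0652) and under median centring or without the intensity trend (adjusted p = 0.0503 and 0.107). The other 18 of 21 tested regulators did not pass. Among them were the HIF subunits Hif1a (0.37, limma adjusted p = 0.412), Arnt (-0.09, 0.924) and Epas1 (0.27, 0.838). Epas1 was near background, with 2 of 3 arrays above the controls in each tissue.

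Pdp1, the phosphatase that reactivates pyruvate dehydrogenase, was the 1 of 8 other genes of pyruvate entry into the mitochondria past the threshold. It fell from 574.7, 1324 and 466.6 to 169.6, 202.0 and 142.7 (-2.04, limma adjusted p = 0.0193; 0.0514 to 0.0809 without any 1 of the fetal liver arrays). In the serine and one-carbon branch, which starts from a glycolytic intermediate, 2 of 8 rose, both mitochondrial folate enzymes. Mthfd1l went from 1265, 1124 and 1154 to 2247, 2242 and 2302 (0.94, adjusted p = 0.02; 0.0545 to 0.102 without any 1 of the fetal liver arrays). Mthfd2 went from 1158, 871.1 and 837.7 to 1860.1, 2058 and 1808 (1.01, adjusted p = 0.0268), a call kept when marrow replicate 1 was left out (adjusted p = 0.0246) and lost when any other array was (0.0558 to 0.135). Dera, which cleaves deoxyribose phosphate, was the 1 of 8 other pentose genes that rose (1.40, adjusted p = 0.0468), a call that likewise held without marrow replicate 1 (adjusted p = 0.0205) and no other array (0.0851 to 0.142). None of 19 citric acid cycle, 15 glycogen, 7 further transporter or 3 gluconeogenesis genes passed in limma. The smallest p among these lists belonged to the citric acid cycle genes Cs (0.54, adjusted p = 0.108) and Sdhd (0.97, 0.139), the glycogen genes Pygl (-0.89, 0.0603) and Gbe1 (-1.63, 0.102), the gluconeogenesis genes Pck2 (-0.52, 0.241) and G6pc3 (-0.47, 0.518), and, among transporters, Bsg, the partner protein of the lactate carriers (0.59, 0.18), and Slc16a7 (-1.15, 0.211).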

How the data were processed

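Each of 6 samples was hybridised to 1 array. The authors deposited linear intensity values per probe set, made with MAS5 per the submitters' processing notes; every array has the same mean after trimming 2% at each end. The 10th percentile of all signals, 2.87, was added before taking log2. Of 45037 probe sets that are not among the 64 controls, 27022 passed a filter at the 40th percentile of mean log2 signal. Names came from the platform annotation, and the probe set with the highest mean log2 stood for each of 11625 genes. Background was the highest of 27 bacterial controls on an array. limma 3.58.1 (R 4.3.3, intensity trend, Benjamini-Hochberg over all genes, threshold 0.05) compared the tissues. The added constant shrinks folds of genes with low signals.

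The members and lists were chosen with earlier results of these data known. Genes past the threshold and isozyme families are given array by array. From each other metabolic or regulator list up to 4 genes past the threshold are named, or the 2 with the smallest p. Hif1a, Arnt and Epas1 are named besides. From each marker list the 3 with the highest signal are named, and for the erythroid list also those that rose. In simulated data over the 11625 genes, limma found 15 of 67 with a 2-fold change, 46 of 67 with 4-fold and 65 of 66 with 16-fold. There were 7 false calls. Only these genes were given a change, fewer than the 903 called in the data, so recovery in the data may differ. matplotlib 3.10.9 drew the figures. Promoter windows came from RefSeq. Alternatives varied the constant, scaling, filter, floor, variance model, probe set rule and covariates, and left out each array.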

Additional observations from a re-analysis of the deposited data

How the results depend on the processing

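Of 31 genes, 3 were called higher in fetal liver and 1 in marrow. The first count was 6 with quantile normalization, 8 with median centring, 5 with the mean of probe sets, 1 without the intensity trend and 0 with the Actb covariate. The second was 2 with a constant of 16, with the mean of probe sets and with the probe set brightest on the linear scale, and 0 with the Actb covariate. Correlations of deviations between samples of the same replicate number were 0.15, -0.02 and 0.08, which does not settle whether the numbers pair the samples. With the replicate block the counts were 8 and 2, and those over all genes 522 and 688. Leaving out 1 array gave 2 to 3 and 1 to 2: without fetal liver replicate 2 Slc2a1 was lost, and without marrow replicates 2 and 3 Ldhb and Pdk2 were added. Over all genes, 350 were higher in fetal liver, against 897 with median centring, 166 without the trend, 10 with the Actb covariate and 102 to 320 with an array left out (177, 106 and 102 without fetal liver replicates 1, 2 and 3). The 553 higher in marrow became 42 with the Actb covariate and 317 to 451 with an array left out (335 and 317 without fetal liver replicates 2 and 3). Marrow held 61.2% of calls, and 32.8% with median centring. The members' median of 0.23 was 0.48 with median centring, 0.33 with the filter at the 60th percentile, 0.42 with the Actb covariate and 0.17 to 0.40 with an array left out.

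Changes of sign came in 30 of the gene values, in 11 genes, 0 of them past the threshold in limma (lowest adjusted p = 0.618); the cause was not tested. Median centring gave Hk2 0.042, Pfkfb3 0.21, Tkt 0.12 and Pgls 0.16. Quantile normalization gave Pfkfb3 0.12, Rpia -0.069 and Pgls 0.018. The Actb covariate gave Pfkfb4 0.65, Aldoc -0.90, Pgd -0.33 and Pgls 0.20. Aldoc was -0.024 with a constant of 16 and -0.29 with a floor at the bacterial controls. Tkt was 0.081 with the mean of probe sets and 0.076 without _x_at and _s_at probe sets. With an array left out, Hk1 ran from -0.14 to 0.66, Pfkfb2 from -0.20 to 0.47, Pfkfb3 from -0.31 to 0.14, Aldoc from -0.71 to 0.49, Pgd from -0.17 to 0.29, Taldo1 from -0.066 to 0.44, Rpia from -0.0061 to 0.058 and Pgls from -0.27 to 0.028.

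The probe set rule on the linear scale and the Gapdh control probe sets were chosen after seeing the data. With 3 arrays per tissue, 2-fold changes were mostly missed in simulated data, so genes that did not pass are not shown to be equal.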
